A study of Mus musculus with 4 samples.

Results

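Ribosomal proteins of the cytosol were followed in 4 arrays of cultured mouse cells. The probe sets were chosen by name alone, as those whose single gene symbol begins Rpl or Rps followed by a digit, or is Rpsa, Rplp0, Rplp1 or Rplp2, with the S6 kinase genes left out. This gave 49 of 12422 tested probe sets and 35 of 8251 genes, with 22 probe sets for 17 genes of the large subunit and 27 probe sets for 18 genes of the small subunit. A further 39 probe sets carry several symbols, one of them a ribosomal protein gene, and no gene is named from them. Rplp1, Rplp2, Rps6, Rps26, Rpl5, Rpl11, Rpl3, Rpl10, Rpl3l, Rpl10l and Rpl22l1 have no probe set with a single symbol and were not analysed here.

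The comparison sets 2 arrays titled Hemangioblast against 2 titled hCD4. All of the cells derive from 1 mouse embryonic stem (ES) cell line that carries a human CD4 reporter of Scl, the blood transcription factor encoded by Tal1, and 20 ug of RNA went into the labelling. The study text describes cells of embryoid bodies at day 2.75, sorted for Flk-1 and the reporter and taken as hemangioblasts (precursors of blood and endothelium), and blast colonies grown from replated embryoid body cells and pooled. The source labels instead speak of differentiated hemangioblasts for the first pair of arrays and of hCD4 ES cells for the second, so the labels do not settle which culture stage each pair holds, and the groups keep their array titles here. No genotype difference, drug or other agent is given between them, and the labels do not say whether replicate arrays stand for separate cultures. The p-values therefore rest on array-to-array spread alone, which may be technical.

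The cytosolic ribosome joins a small subunit, which reads the mRNA, to a large subunit, which forms the peptide bond, and each carries its own set of proteins around ribosomal RNA. Dividing cells make these proteins in matched amounts from some of their most abundant mRNAs, most of which begin with a stretch of pyrimidines (a 5′ terminal oligopyrimidine, or TOP) through which mTOR controls their translation. Red cell precursors depend strongly on them, and loss of 1 copy of any of several of these genes causes Diamond-Blackfan anaemia in humans.

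The annotated start sites were searched for the pyrimidine stretch. A start without a match does not show that the mRNA lacks it, as only letters near annotated starts were read. Windows of 30 bases around the start (15 before it, then 15 from it on) are printed for 6 genes with a run. For contrast, they are printed for 2 without one that come up again below. Sequences are from RefSeq on GRCm38.p6, on the gene's own strand. Capitals mark a run of C followed by at least 5 of C or T, as far as it lies in the window. Where a pyrimidine stretch holds several such Cs, the capitals begin at the one nearest the annotated start.
Rps18: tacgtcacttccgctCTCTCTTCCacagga
Rps10: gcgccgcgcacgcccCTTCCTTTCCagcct
Rps27: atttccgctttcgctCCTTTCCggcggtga
Rpl38: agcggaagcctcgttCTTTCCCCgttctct
Rpl35a: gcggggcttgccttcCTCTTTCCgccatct
Rpl7a: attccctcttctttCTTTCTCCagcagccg
Rpl22: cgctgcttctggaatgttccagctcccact
Rpl7l1: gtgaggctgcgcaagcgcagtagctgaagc
The windows lie at chr17:33955651-33955680 on the minus strand for Rps18, chr17:27635230-27635259 minus for Rps10, chr3:90213634-90213663 minus for Rps27 and chr11:114668565-114668594 plus for Rpl38. They lie at chr16:33056467-33056496 plus for Rpl35a, chr2:26910792-26910821 plus for Rpl7a, chr4:152324421-152324450 plus for Rpl22 and chr17:46782642-46782671 minus for Rpl7l1. In the first 5 the capitals begin on the first base of the transcript at the start printed, and in Rpl7a 1 base before it. In all 6 genes with a run the letters just before the capitals are also C or T, so the pyrimidine stretch itself opens earlier. Rpl35a has other annotated starts without a run, and Rpl22 has another start, also without one. In some other genes the C nearest the start lay further from it.

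Start sequences were found for 28 of the 35 genes, with 37 starts between them. Pyrimidine runs of this kind were searched on the sense strand. A start counted if any C that opens such a run lay within 10 bases of it, even where the pyrimidine stretch began earlier. This held for 40.5% of the ribosomal protein starts, against 19.2% of all 32851 annotated starts. The letters CGGAAG, the core recognised by Ets family factors such as GABP, were found on either strand between 100 bases before and 50 bases after the start at 48.6% of the ribosomal protein starts, against 11.8% of all starts. ATGGCG, part of the motif of the zinc finger factor YY1, was found at 35.1% against 5.86%, and TATAAA, the TATA box, at 8.11% against 6.94%. These are matches of letters, with no test, and several genes have more than 1 annotated start.

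Ribosomal protein mRNA gave some of the strongest signals of both groups. Intensities are given after each array was scaled to a common trimmed mean, in arbitrary units. Of the 100 brightest probe sets on these arrays, 19 were members and 23 more were probe sets with several symbols that include a ribosomal protein gene. When each gene was represented by its brightest probe set, 21 of the 35 genes lay at a mean of 1000 or more, and 14 lay lower, of which 8 were under 100. The value of 1000 was chosen after the intensities were seen. The nearest genes on its upper side were Rpl13a at 1435 and Rps13 at 1589, and the nearest below was Rps4l at 960.4. Levels of different probe sets depend on their probes and are not compared as amounts of mRNA.

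**Figure D1:**
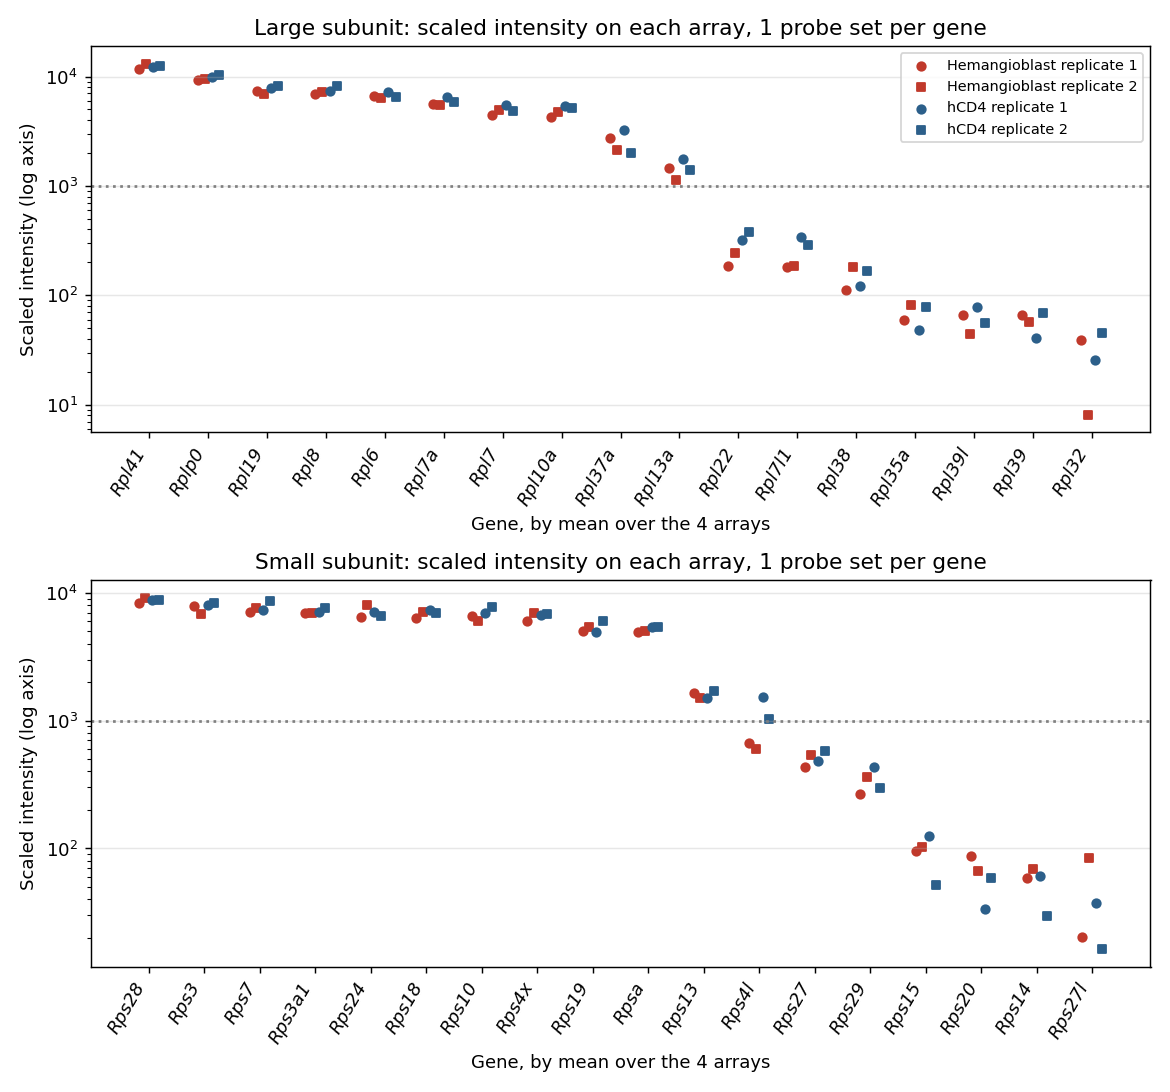
Scaled intensity (log axis) of every ribosomal protein gene on each array, with the large subunit above and the small subunit below, genes ordered by their mean. Each point is 1 array, Hemangioblast in red and hCD4 in blue, and the dotted line marks 1000. Above the line the points of the 4 arrays nearly coincide for most genes, and below it the arrays of a group lie further apart.

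The question put to these genes was whether the supply of ribosomal protein mRNA differed between the populations, for the large and the small subunit apart. Relative to the other mRNA on each array, it differed little among the genes at a mean of 1000 or more. The same amount of RNA was labelled for each array, and the arrays were scaled to a common trimmed mean. A change per cell shared by most mRNAs would therefore not show. Whether the brightest signals were compressed was not tested. Changes are log2 differences, Hemangioblast minus hCD4, of the scaled intensity plus 16, tested with limma. The median change was -0.14 over the 17 large subunit genes and -0.07 over the 18 small subunit genes, against 0.02 over all 8251 genes. Of the 35 genes, 0 rose and 1 fell at an adjusted p under 0.05 (limma, Benjamini-Hochberg over all probe sets), against 3.43% of all genes higher and 1.95% lower. Counted as probe sets, 0 of 49 rose and 1 fell, against 2.91% higher and 1.56% lower. At an unadjusted p under 0.05 the count was 3 of 35, all lower, where 18.3% of all genes stood in either direction.

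Among the 21 bright genes, 20 had a change below 0 and 1 had one above, and all lay between -0.28 and 0.09. Rps4l, described below, lies just under the chosen value of 1000 and has a mean of 1284 on hCD4 arrays, so the narrow range depends on where that value was set. Their standard deviation across genes was 0.08, less than the median standard error of a single change, 0.14. The 95% interval lay within 1 log2 unit of 0 for all 21 genes and within 0.5 for 17 of them. The median of the 21 was -0.10, close to the -0.09 found over the brightest 10% of all probe sets (1243, with a mean of at least 1065). The typical intensity of the 21 genes, as a median per array, was 6453 and 6797 on Hemangioblast arrays and 7009 and 6792 on hCD4 arrays. Over both subunits, Hemangioblast replicate 2 thus stood at the level of hCD4 replicate 2. For the large subunit alone the medians were 6129 and 5938 against 6893 and 6149. For the small subunit they were 6453 and 6886 against 7009 and 6899. For 16 of the 21 the change was smaller than the larger of the gaps between replicate arrays.

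**Figure D2:**
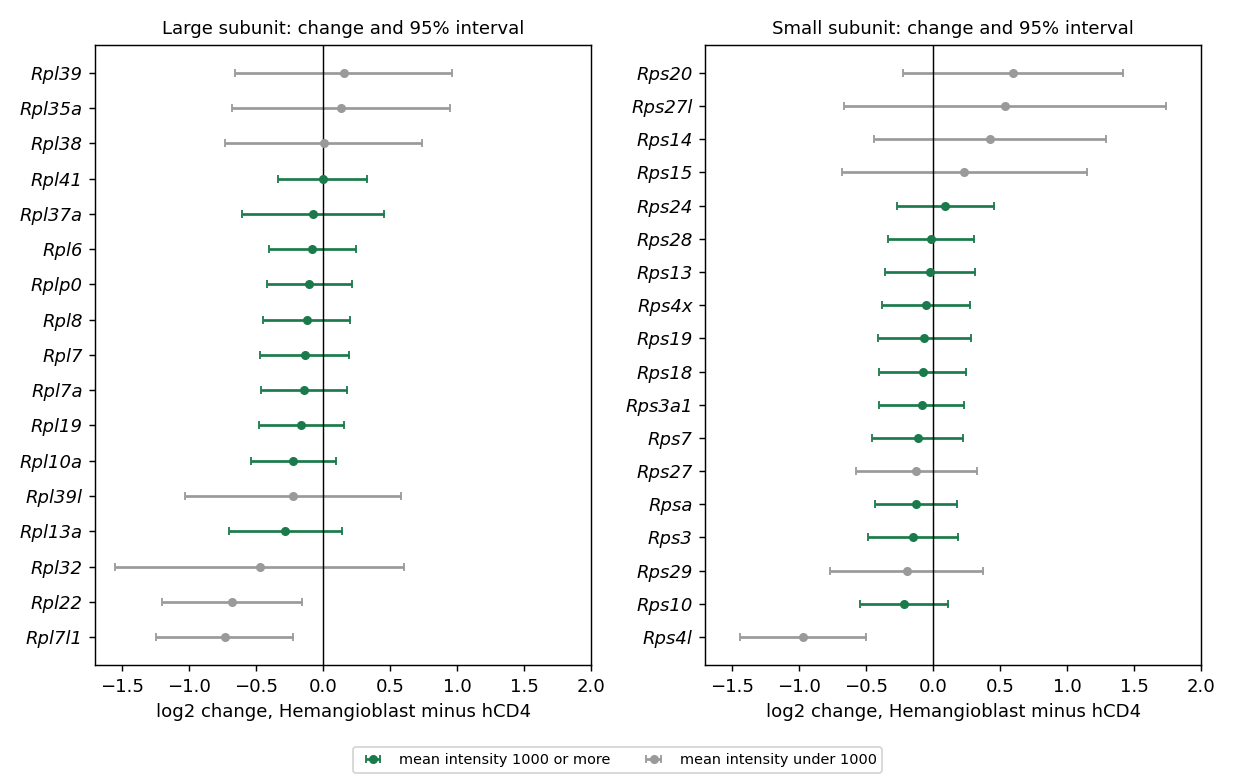
Log2 change of each gene (Hemangioblast minus hCD4) with its 95% interval from limma, for the large subunit on the left and the small subunit on the right, 2 arrays per group. Green marks genes with a mean intensity of 1000 or more, which all lie between -0.28 and 0.09, and grey marks dimmer genes, whose intervals are wider.

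In the large subunit, the stalk base gene Rplp0, whose protein anchors the arm that recruits translation factors, had 9254 and 9513 on Hemangioblast arrays and 9877 and 10287 on hCD4 arrays. Both Hemangioblast arrays were the lower ones, by a log2 change of -0.10 (SE 0.137, 95% interval -0.42 to 0.21, adjusted p = 0.815). Rpl41, which encodes one of the smallest of all cellular proteins and was the brightest probe set of the array, had 11697 and 13156 against 12343 and 12552, and its arrays overlapped (log2 change -0.0049, 95% interval -0.34 to 0.33).
Rpl19, much used as a reference gene, had 7363 and 6905 on Hemangioblast arrays and 7834 and 8133 on hCD4 arrays. Rpl8, a protein near the peptide-forming centre, had 6969 and 7289 against 7352 and 8199. The groups did not overlap for these genes, yet their adjusted p-values were 0.67 and 0.774 (limma). Rpl13a, whose protein is also known as a translation silencer in human myeloid cells, had 1463 and 1127 on Hemangioblast arrays and 1747 and 1402 on hCD4 arrays, the lowest change of any bright gene (-0.28, 95% interval -0.70 to 0.14) with arrays that overlap.
The remaining bright genes of the large subunit were Rpl6, Rpl7, Rpl7a, Rpl10a and Rpl37a. Their changes ran from -0.22 for Rpl10a to -0.08 for Rpl37a. The source accession of the Rpl7a probe set is also listed for probe sets of Surf1 and Surf2.

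In the small subunit, no brightly read gene linked to Diamond-Blackfan anaemia passed the threshold. Rps19, the gene first linked to that disease, had 5016 and 5391 on Hemangioblast arrays and 4959 and 5972 on hCD4 arrays, with overlapping groups (log2 change -0.07, 95% interval -0.41 to 0.28). Rps10 had 6528 and 6026 on Hemangioblast arrays and 6918 and 7706 on hCD4 arrays, without overlap (-0.22, 95% interval -0.55 to 0.11, adjusted p = 0.539 by limma). The brightest probe set annotated to Rps24 had 6453 and 8052 against 7009 and 6524, the 1 bright member with a change above 0 (0.09, 95% interval -0.27 to 0.45). Its identity is uncertain, because the platform table gives it the same source accession as the brightest Rpl7 probe set. The other Rps24 probe set, with 228.9 and 262.6 against 182.2 and 251.9, had a change of 0.18.
Rps28 had 8363 and 9120 on Hemangioblast arrays and 8815 and 8853 on hCD4 arrays by its brightest probe set, and its change was -0.02 (95% interval -0.34 to 0.30). Rps3, which lines the path by which mRNA enters the ribosome, had 7926 and 6797 against 7964 and 8325 (-0.15, 95% interval -0.49 to 0.19). Rps7, one of the ribosomal proteins that bind the p53 regulator Mdm2, had 7045 and 7530 against 7281 and 8555 (-0.12, 95% interval -0.46 to 0.23).
Rpsa, whose product also serves as a laminin receptor, had 4895 and 5034 on Hemangioblast arrays and 5400 and 5443 on hCD4 arrays, a gap wider than either pair (-0.13, 95% interval -0.43 to 0.18, adjusted p = 0.748 by limma). The other bright genes of this subunit were Rps3a1, Rps4x, Rps13 and Rps18, with changes between -0.09 and -0.02.

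Over bright genes the median change was -0.13 for 10 genes of the large subunit and -0.08 for 11 of the small subunit. Over all genes of each subunit, the large subunit median was below the small in 12 of 13 settings. Without Hemangioblast replicate 1 the median over all small subunit genes was 0.01, and that of the large subunit was -0.15. No test was made of a list or of the difference between lists.

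The groups did not overlap for 13 of the 35 genes, with 12 lower and 1 higher on the Hemangioblast arrays, where 22% of all genes were lower in this sense and 24.5% higher. Of the 12, 7 belong to the large and 5 to the small subunit, and the 1 higher gene was Rps20. Of the 21 bright genes, 9 were lower without overlap, a share near the 39.3% of the brightest 10% of probe sets. None of the 21 was higher without overlap, against 17.8% there. Hemangioblast replicate 1 was the lowest array for 11 of the 21 bright genes and replicate 2 for 8, while hCD4 replicates 1 and 2 were the highest for 7 and 10. On Hemangioblast replicate 1 the control ratios of 3′ to 5′ signal, which rise as RNA degrades, were also the highest, at 1.33 for Gapdh and 1.63 for actin. They were 1.03 and 1.16 on Hemangioblast replicate 2, 1.13 and 1.36 on hCD4 replicate 1, and 1.03 and 1.12 on hCD4 replicate 2. Their part in the small change was not tested.

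**Figure D3:**
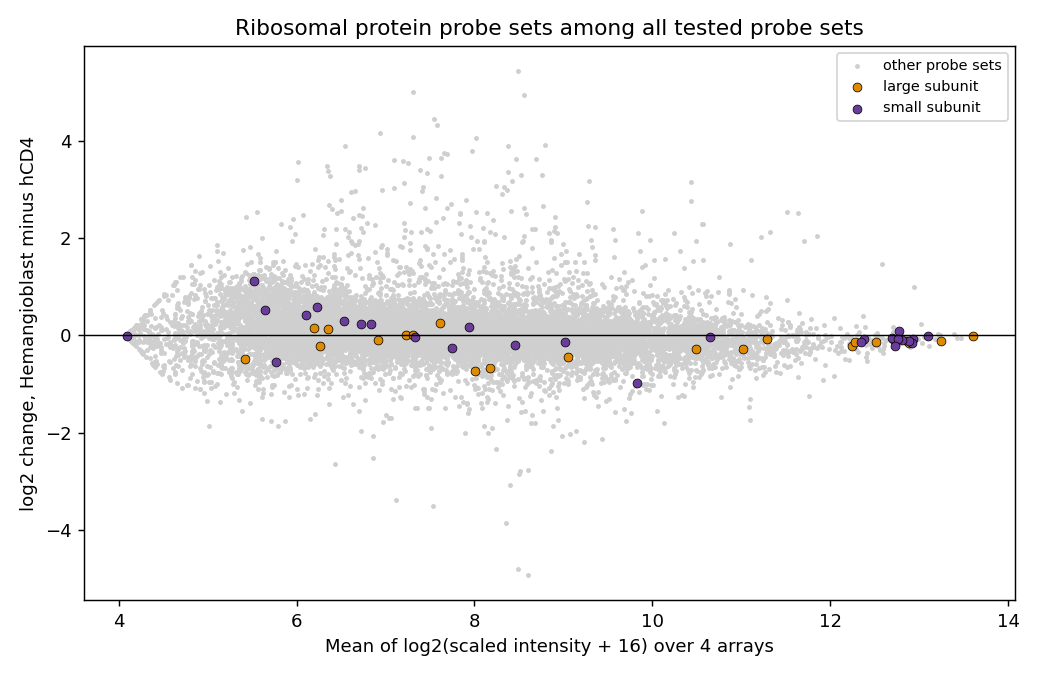
Log2 change (Hemangioblast minus hCD4) of every tested probe set against its mean log2 intensity, with large subunit probe sets in orange and small subunit probe sets in purple. The bright members form a tight group just below 0 at the right edge, within the cloud of other bright probe sets, and the dimmer ones spread with the cloud.

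The only call was a probe set annotated to Rps4l, an autosomal copy of the X-linked gene Rps4x. Whether its probes also read Rps4x or other transcripts was not tested. RefSeq lists this copy, Rps4l, as a transcribed pseudogene, the only one of the 35 that is not listed as protein coding. Rps4l had 673.9 and 600.4 on Hemangioblast arrays and 1529 and 1038 on hCD4 arrays. Both Hemangioblast arrays lay well below both hCD4 arrays, which themselves were far apart. The mean was 637 ± 52.0 on Hemangioblast arrays and 1284 ± 347 on hCD4 arrays (SD, n = 2 each). The log2 change was -0.97 (SE 0.205, limma adjusted p = 0.0373), or 1.96-fold lower on the Hemangioblast arrays. The call rested on single arrays and on the scaling. Without Hemangioblast replicate 2 the adjusted p (limma) was 0.0993, without hCD4 replicate 1 it was 0.214, without scaling 0.196, with quantile normalization 0.0523 and with a variance model that takes no intensity trend 0.185. The change stayed below 0 in all of these, between -1.25 and -0.69 with 1 array left out.

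The other probe set of Rps4l and its parent gene did not share the change. On the dimmer Rps4l probe set the values were 141.8 and 144.9 against 124.2 and 175.5, with a change of -0.04 (95% interval -0.69 to 0.61). Rps4x had 6060 and 6967 on Hemangioblast arrays and 6709 and 6792 on hCD4 arrays by its brightest probe set, and the groups overlapped (-0.05, 95% interval -0.38 to 0.27). The difference in change between Rps4l and Rps4x was not tested. Of the 4 further Rps4x probe sets, all under 300, 1 was at about 1 on every array, and another had 71.79 and 36.57 against 9.80 and 21.24 (log2 change 1.13, adjusted p = 0.197 by limma).

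Rpl7l1 and Rpl22 came nearest to the threshold after it. Rpl7l1, a paralog of Rpl7, had 181.7 and 184.0 on Hemangioblast arrays and 342.5 and 289.8 on hCD4 arrays. The replicate arrays lay close together and the groups apart, with a log2 change of -0.74 (SE 0.222, 95% interval -1.25 to -0.23, adjusted p = 0.124 by limma). Rpl7 itself had 4435 and 4990 against 5482 and 4891, with overlap (-0.14, adjusted p = 0.748 by limma). Its dimmer probe set had 468.6 and 412.1 against 591.7 and 609.6 (-0.44, adjusted p = 0.251 by limma).
Rpl22, which mouse alpha-beta T cells need for their development, had 186.4 and 241.5 on Hemangioblast arrays and 322.8 and 378.3 on hCD4 arrays (log2 change -0.68, SE 0.228, adjusted p = 0.167 by limma). On its other probe set the direction was opposite and the arrays overlapped, with 177.6 and 219.0 against 194.4 and 137.0 (0.25, adjusted p = 0.759). By the letter search above, no pyrimidine run lay at the annotated starts of Rpl7l1 and Rpl22. None lay at those of Rplp0, Rps3 and Rps7 either, whose changes lay between -0.15 and -0.10. Whether their mRNAs carry the stretch was not tested. Rps18 and Rps10, whose annotated first base is a C of such a run, had changes of -0.08 and -0.22.

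The other paralogs were dim. Rpl39l, which replaces Rpl39 in mouse male germ cells, had 66.81 and 44.67 against 78.86 and 56.38 (-0.23, 95% interval -1.03 to 0.58), and Rpl39, a small protein of the exit tunnel, had 66.80 and 56.56 against 41.06 and 69.20 (0.15, 95% interval -0.66 to 0.96). Rps27l, a p53 target, had 20.18 and 83.55 on Hemangioblast arrays and 37.22 and 16.30 on hCD4 arrays, so its replicates were further apart than the groups (0.53, 95% interval -0.67 to 1.73). Rps27 was brighter and level, with 430.4 and 540.3 against 478.9 and 580.3 (-0.12, 95% interval -0.58 to 0.33).

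Several core members were read only by dim probe sets, although every cell needs their products. Rps14, the gene lost in a human myelodysplastic syndrome with anaemia, had 58.34 and 69.12 on Hemangioblast arrays and 60.93 and 29.60 on hCD4 arrays (log2 change 0.43, 95% interval -0.44 to 1.29). Rps15 had 95.29 and 102.1 against 125.5 and 51.36, and Rps20 had 86.63 and 66.55 against 33.88 and 58.57, the only gene of the 35 that was higher without overlap (0.59, 95% interval -0.23 to 1.42, adjusted p = 0.497 by limma).
Rpl35a, another gene of Diamond-Blackfan anaemia, had 59.39 and 81.74 on Hemangioblast arrays and 48.67 and 78.35 on hCD4 arrays. Rpl38, which Hox mRNAs need for their translation in the mouse embryo, had 111.4 and 181.3 against 121.5 and 165.9. Both overlapped, with changes of 0.14 and 0.00. Rpl32 had 38.97 and 8.09 against 25.50 and 45.64, and Rps29 had 267.1 and 362.1 against 431.4 and 298.9, again with overlap. The hCD4 arrays of Rps15 and the Hemangioblast arrays of Rpl32 lay further apart than the group means. Of the 14 dimmer genes, 5 had a 95% interval within 1 log2 unit of 0.

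Genes with several probe sets were also compared probe set by probe set. Of the 10 such genes, Rpl10a had 2 bright probe sets with changes of -0.22 and -0.27, and Rps28 had 2 with changes of -0.02 and -0.08. The 14 probe sets that do not stand for a gene included 0 past the threshold. The 39 probe sets with several symbols gave a median change of -0.07, with 0 past the threshold in either direction at the adjusted or the unadjusted p. The 27 of them at 1000 or more had a median of -0.09 and lay between -0.25 and 0.19.

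**Figure D4:**
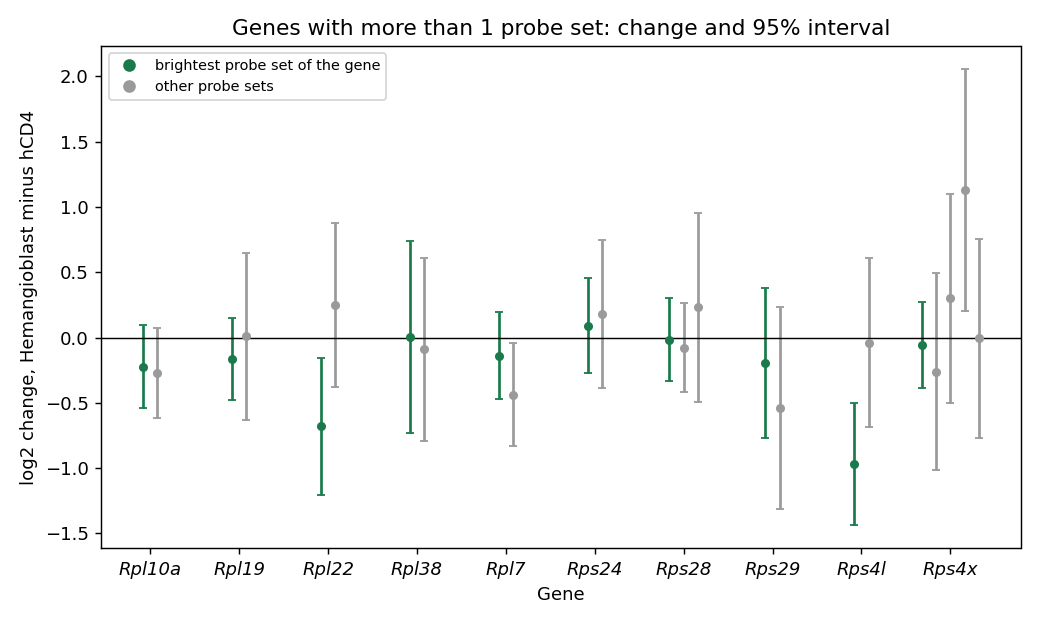
Log2 change (Hemangioblast minus hCD4) with its 95% interval for each probe set of the 10 genes that have more than 1. Green marks the brightest probe set of a gene and grey the others. The probe sets of Rps4l and of Rpl22 part from each other, while the brightest ones of the other 8 genes lie near 0. Some dimmer ones of those genes stand further off, such as 1 each of Rps4x (1.13), Rps29 (-0.54) and Rpl7 (-0.44).

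Some regulators of ribosome production passed the threshold. The gene lists from here on were chosen with earlier results of these data known. Their counts therefore do not test for an excess over all genes. In a list of Myc genes and RNA polymerase I factors, 4 of 12 measured genes fell and 0 rose, against 1.95% of all genes lower and 3.43% higher, and the median log2 change was -0.44. Myc, a transcription factor that drives ribosome production, had 185.1 and 145.8 on Hemangioblast arrays and 398.0 and 387.9 on hCD4 arrays (log2 change -1.18, adjusted p = 0.0236 by limma). Mycn, its relative, had 317.3 and 129.9 against 816.7 and 689.2 (-1.80, adjusted p = 0.0266). Both genes were lower on both Hemangioblast arrays than on either hCD4 array.
Taf1a, part of the complex that brings RNA polymerase I to ribosomal RNA genes, had 87.33 and 70.28 on Hemangioblast arrays and 341.7 and 337.0 on hCD4 arrays (-1.91, adjusted p = 0.00451 by limma). Polr1a, the largest subunit of that polymerase, had 348.2 and 350.3 against 614.0 and 640.1 (-0.82, adjusted p = 0.0366 by limma). The replicates of Taf1a and Polr1a agreed closely, while the Hemangioblast replicates of Mycn lay far apart. The calls were less steady than the changes (limma adjusted p). Without scaling the values were 0.0846 for Myc, 0.116 for Mycn and 0.112 for Polr1a, and without an intensity trend 0.0817, 0.138 and 0.147. With quantile normalization Mycn was at 0.0534. Taf1a kept its call in these settings. Without hCD4 replicate 1 the values were 0.145 for Myc, 0.162 for Mycn and 0.166 for Polr1a. Without hCD4 replicate 2 they were 0.145, 0.122 and 0.237, and Taf1a stood at 0.05. Without Hemangioblast replicate 1 Polr1a was at 0.0727, and without Hemangioblast replicate 2 it was at 0.0859 and Myc at 0.0847. With 1 array left out the log2 change ran from -1.34 to -1.02 for Myc, -2.04 to -1.78 for Taf1a and -0.84 to -0.79 for Polr1a. That of Mycn was -2.39 without Hemangioblast replicate 1 and -1.20 without Hemangioblast replicate 2.

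Loose ribosomal proteins can hold back Mdm2 and so raise p53. In a list of p53 response genes, 2 of 7 measured genes rose while 0 fell, against 3.43% of all genes higher and 1.95% lower. The median log2 change was 0.53, against 0.02 over all genes, and is the value of Rps27l, which ran from -0.20 to 1.26 with 1 array left out. Cdkn1a, the cell cycle inhibitor p21, had 866.4 and 696.0 on Hemangioblast arrays and 385.6 and 298.8 on hCD4 arrays (1.16, adjusted p = 0.0171 by limma). Sesn1, a stress gene that restrains mTOR, had 454.4 and 419.9 against 202.7 and 141.9 (1.29, adjusted p = 0.021 by limma). Neither gene overlapped between groups, and Rps27l, also on the list, is described above. As this list too was chosen with earlier results known, its count does not test for an excess. Whether loose ribosomal proteins or p53 had a part in these values was not tested. Without hCD4 replicate 2 the adjusted p (limma) was 0.132 for Cdkn1a and 0.125 for Sesn1, and without Hemangioblast replicate 1 it was 0.0622 and 0.0822. Without Hemangioblast replicate 2 that of Sesn1 was 0.0739. Without scaling the values were 0.097 for Cdkn1a and 0.0841 for Sesn1, and without an intensity trend 0.109 and 0.0889. With 1 array left out the log2 change ran from 0.98 to 1.33 for Cdkn1a and from 1.05 to 1.52 for Sesn1.
Of 11 measured genes of ribosome partners and other TOP mRNAs, such as the elongation factors, 0 passed the threshold (median log2 change -0.18). The 10 measured genes of mTOR and S6 kinase signalling also held 0 (median -0.09), as did the 61 measured proteins of the mitochondrial ribosome (median 0.00), which are encoded in the nucleus and share no member with the cytosolic set.

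Markers of blood cells differed widely between the groups. Of 18 measured myeloid markers, 15 rose and 0 fell, and their summed intensity came to 16917 and 18180 on Hemangioblast arrays and 2118 and 2352 on hCD4 arrays. Of 13 measured erythroid markers, 10 rose and 0 fell, with sums of 40887 and 43857 against 14075 and 15061. Of 12 pluripotency and epiblast markers, 3 fell and 0 rose, with a median log2 change of -0.62 and sums of 4805 and 4824 against 8823 and 6500. Most of the Hemangioblast sums came from Esrrb, with 3343 and 3476 on Hemangioblast arrays against 3165 and 3579 on hCD4 arrays. Endothelial markers were mixed (2 of 9 rose, 1 fell), with sums of 5399 and 4706 against 4814 and 5667, as were fibroblast and feeder markers (1 of 12 rose, 1 fell), with 3082 and 3948 against 3219 and 2840. Whether a difference in cell makeup had a part in the values of Rps4l, of Myc and of the p53 genes was not tested. In such bulk RNA fewer cells of a type and less RNA per cell cannot be told apart. In all, 556 of 12422 probe sets (4.48%) passed the threshold on these arrays.

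The small offset of the bright ribosomal protein genes moved with the scaling. Their median change was below 0 in each of 13 settings, from -0.19 with median scaling to -0.04 with quantile normalization. The brightest 10% of all probe sets moved beside it, at -0.18 and -0.03 in those settings. The distance between the medians was at most 0.05 in any setting, reached when an array was left out. Of the 21 genes, 16 to 20 had a change below 0 in every setting.

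**Figure D5:**
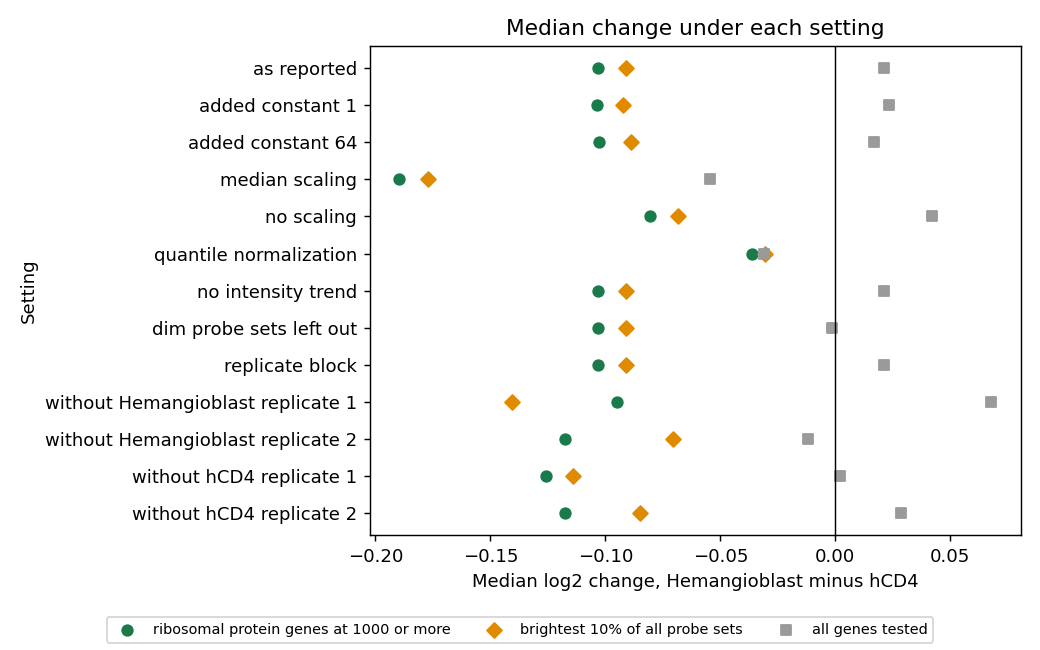
Median log2 change (Hemangioblast minus hCD4) under each of 13 settings for the 21 ribosomal protein genes at 1000 or more (green), the brightest 10% of all probe sets (orange) and all genes tested (grey). Green and orange shift together between the scalings, within -0.19 to -0.03, and part by up to 0.05 when an array is left out.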

How the data were processed

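Single-colour arrays were hybridised with biotin-labelled RNA, per the labels' protocols. The deposited table holds a linear intensity for each probe set on each array. How the authors made these intensities (software, background correction, scaling) is not given in the sources used here. The 66 control probe sets were left out, and all 4 value columns were used. Each array was scaled to the average 2% trimmed mean (factors 0.939, 1.05, 0.936 and 1.09), 16 was added and log2 taken, without a filter. The number of arrays limits precision.

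Genes were named from the platform annotation (10833 of 12422 probe sets with 1 symbol, 396 with several, 1193 with none), and the brightest probe set stands for a gene. All 35 member symbols matched RefSeq by gene identifier. limma 3.58.1 in R 4.3.3 (lmFit, eBayes with an intensity trend) compared Hemangioblast with hCD4, two-sided, with Benjamini-Hochberg adjustment over 12422 probe sets. An exact permutation test of 2 against 2 arrays cannot go below 0.333. The fit was tested on simulated data.

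Members and lists were chosen with earlier results of these data known. Named members are those past the threshold, the 4 highest and 4 lowest changes and the 3 brightest genes per subunit, the stalk and anaemia genes, Rpsa, Rps6, Rpl38, and paralogs with their parents. Myc, Mycn, Taf1a, Polr1a, Cdkn1a and Sesn1 were named after their values were seen. Protein sequences were not used here. Figures were drawn with matplotlib 3.10.9.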

Additional observations from a re-analysis of the deposited data

How the results depend on the processing

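With 2 arrays per group, calls on dim or variable probe sets are unsteady, while changes of bright ribosomal protein genes are limited by array-to-array spread and by scaling. Probe sets called higher and lower over the whole array numbered 362 and 194, against 222 and 50 without scaling, 188 and 32 without an intensity trend, and 356 lower with probe sets under a mean of 100 left out. With 1 array left out they numbered 170 to 283 higher and 42 to 234 lower. No large subunit gene was called under any setting that was run (unadjusted p under 0.05 in 2 of 17 genes as reported). In the small subunit the 1 call, Rps4l, became 0 without scaling, with quantile normalization and without a trend, and was 0 to 1 with 1 array left out. Large subunit genes lower without overlap fell to 4 without scaling and were 9 to 12 with 1 array left out, and 0 to 3 were higher. Small subunit genes lower without overlap were 3 without scaling and 6 to 12 with 1 array left out. The 1 small subunit gene higher without overlap became 0 with median scaling, with quantile normalization and with dim probe sets left out, 2 with every probe set counted, and 1 to 6 with 1 array left out. The median change of the small subunit was -0.16 with median scaling and 0.23 over its 7 dimmer genes, a split chosen after seeing the data, and ran from -0.13 to 0.01 with 1 array left out. That of the large subunit ran from -0.19 to -0.12. With 1 array left out a group holds a single array, so groups that do not overlap come up more easily. Those counts are therefore not comparable with the counts as reported. The cause of the shifts between settings was not tested. The replicate numbers share only a number: the replicate 1 minus 2 differences of the groups correlated at -0.008 across probe sets, and with the replicate block the counts were 432 higher and 278 lower, the medians -0.14 and -0.07, and Rps4l stayed the 1 call (limma adjusted p = 0.0127). Of 388 values of named genes under other settings, 357 kept their side of the threshold and 31 lost a call. The sign changed in 27 values of 14 genes, none of them past the threshold as reported.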
